A study of Mus musculus with 161 samples.

Results

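CTCF carrying the substitutions Y226A and F228A was compared with full-length CTCF by chromosome conformation capture carbon copy (5C) in mouse embryonic stem cells. Of 91 5C libraries, the comparison takes the 2 of line EN297.3, which expresses CTCF(Y226A-F228A), and the 14 of line EN133.10, which expresses full-length CTCF, all treated with auxin and doxycycline (dox) for 4 days. They were chosen by line and treatment alone. Both lines were derived from male E14Tg2a cells in which endogenous CTCF is fused to an auxin-inducible degron (CTCF-AID) and the plant adaptor Tir1 is expressed. In both, auxin degrades the endogenous protein while dox, through the activator Rtta3G, switches on a TetO-driven CTCF cDNA inserted at the Tigre locus. EN297.3 is clone 1 of the mutant and EN133.10 is a single clone with high expression of full-length CTCF, so that a difference between the substitutions and one between clones or in the amount of transgenic protein cannot be told apart here. Protein levels and CTCF binding in the mutant line are not among the data analysed here.

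CTCF is a zinc-finger protein that halts cohesin, the ring complex thought to extrude chromatin loops, and thereby forms boundaries of topologically associating domains (TADs). The tyrosine and phenylalanine replaced in Y226A-F228A lie N-terminal of the zinc fingers, in a short stretch that contacts the surface formed by the cohesin subunits SA2 and RAD21. The CTCF motif is not symmetric, and loops form preferentially between sites whose motifs point towards each other. In that arrangement the left site carries its motif on the plus strand and the right site on the minus strand, and the N terminus of CTCF faces the inside of the loop.

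The mapped region, chrX:98831148-103425147 (mm9), spans the X-inactivation centre with Xist, the noncoding RNA that silences the X chromosome, and its antisense partner Tsix. It was divided into 230 bins of 20 kb. The study lists 6 of these bins as CTCF-dependent TAD boundaries, and they cut the region into 7 segments. Boundaries and segments are numbered here from low to high coordinates. The study took insulation minima of untreated CTCF-AID cells and left out those also found after auxin. Boundary 1 (chrX:99151148-99171147) overlaps Nhsl2, and boundary 2 (chrX:99411148-99431147) overlaps no gene named in the annotation. Boundary 3 (chrX:100451148-100471147) overlaps the gene 4930519F16Rik. Boundary 4 (chrX:100671148-100691147) holds the 5′ end of Xist and the annotated 3′ end of Tsix. Boundary 5 (chrX:101211148-101231147) overlaps no named gene and follows segment 5, which holds Rlim, a ubiquitin ligase that activates Xist. Boundary 6 (chrX:103211148-103231147) overlaps Atp7a, a copper transporter, and Cox7b, a subunit of cytochrome c oxidase.

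FLAG-CTCF peaks, called in cells expressing full-length CTCF, were searched on both strands for the motif core CCNNNAGNNGGC to learn which way the sites at these boundaries point. These peaks come from line EN133.10 after 2 days of auxin and dox, whereas the 5C libraries were made after 4 days. The core was found in 50.8% of the 49682 peaks and in 3.85% of windows of the same length 1000 bases away. Within the region it was found in 39 of 78 peaks. The boundary bins themselves held 8 cores and all lie on the plus strand, that is, they point towards higher coordinates. They are shown with 14 flanking bases on either side, 5′ to 3′, with the core in capitals, since the side of each boundary on which contacts were lost is described below.
Boundary 1, chrX:99170396-99170435, plus strand: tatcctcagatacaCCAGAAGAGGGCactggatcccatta
Boundary 2, chrX:99414647-99414686, plus strand: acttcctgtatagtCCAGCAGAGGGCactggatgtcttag
Boundary 2, chrX:99415158-99415197, plus strand: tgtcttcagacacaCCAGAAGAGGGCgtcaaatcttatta
Boundary 3, chrX:100455379-100455418, plus strand: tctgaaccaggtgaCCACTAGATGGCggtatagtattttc
Boundary 4, chrX:100677059-100677098, plus strand: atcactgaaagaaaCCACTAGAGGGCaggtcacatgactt
Boundary 4, chrX:100679557-100679596, plus strand: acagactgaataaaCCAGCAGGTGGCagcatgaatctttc
Boundary 6, chrX:103214281-103214320, plus strand: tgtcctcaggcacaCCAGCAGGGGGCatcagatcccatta
Boundary 6, chrX:103221920-103221959, plus strand: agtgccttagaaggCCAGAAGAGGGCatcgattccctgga
The bin of boundary 5 holds no peak. The nearest core lies 2 bins before it, in a bin with the promoter of Rlim, and it is on the minus strand, written here as read on that strand.
Before boundary 5, chrX:101185950-101185989, minus strand: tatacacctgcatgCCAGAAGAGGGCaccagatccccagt
Cores on the minus strand were also found 1 or 2 bins before boundaries 1, 2, 4 and 6, so that these boundaries hold cores in both directions, whereas boundary 3 holds 1 core on the plus strand.

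The Y226A-F228A libraries held 20186662 and 21902736 counts. Of the 14 full-length libraries, the 12 with a complete count matrix held 5262254 to 23096139, with a median of 11957664. Library numbers were split into runs here, with a new run wherever the number rose by over 10. The mutant libraries share their run with full-length replicates 12 and 13. These held 23096139 and 20336384 counts and are the deepest of those 12. The labels name no run or batch and give no date. A run is therefore only a guess at a processing batch, and comparisons within it may not remove batch differences. Differences against full-length replicates 12 and 13 are given beside the main ones, as differences within the run. With 2 libraries against 14, the smallest p of a two-sided exact permutation test is 0.0167, and with 2 against 2 it is 0.333.

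Cells complemented with Y226A-F228A had weaker TAD boundaries than cells complemented with full-length CTCF. Insulation, minus log2 of the contacts that span a bin within 100 kb over the mean of the region, was 0.39 and 0.37 on average over the 6 boundaries in mutant replicates 1 and 2. In the full-length libraries the lowest value was 0.54, the median 0.60 and the highest 0.71. Both mutant libraries lay below all 14 full-length libraries, at 0.38 ± 0.016 (SD, n = 2) against 0.61 ± 0.040 (SD, n = 14). The difference of -0.23 had p = 0.0167 in the exact permutation test and adjusted p = 0.025 over the 6 summary values of the map. Within the run it was -0.20, from 0.58 in the full-length libraries, after thinning all libraries with complete counts to the lowest depth it was -0.23, and from raw counts, without the iterative correction, it was smaller at -0.15 (exact permutation adjusted p = 0.044).

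The loss was uneven over the boundaries, and boundary 4 at Xist did not share it. In a limma fit over the 193 bins with a score, 5 of the 6 boundary bins were lower in the mutant. At boundary 5 the mutant libraries scored 0.30 and 0.32 and the full-length libraries 0.63 to 0.79, a difference of -0.40 ± 0.038 (SE, limma adjusted p = 1.0e-07). At boundary 3 the scores were -0.00097 and 0.0081 against 0.30 to 0.44, a difference of -0.38 ± 0.035 (limma adjusted p = 7.9e-08). The score of this bin was thus at the mean of the region in both mutant libraries. At boundary 2 the scores were 0.34 and 0.32 against 0.55 to 0.85, a difference of -0.33 ± 0.057 (limma adjusted p = 1.1e-04). At boundary 6 they were 0.48 and 0.46 against 0.60 to 0.91, a difference of -0.22 ± 0.056 (limma adjusted p = 0.0030).

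Boundary 1 differed least among those called, at -0.29 and -0.32 in the mutant against -0.26 to -0.093, a difference of -0.12 ± 0.040 (limma adjusted p = 0.019). Its score was below the mean of the region in all 16 libraries, and with the run as a block the difference was -0.042 and was not called (limma adjusted p = 0.54). At boundary 4, with the 5′ end of Xist, the mutant scored 1.50 and 1.41, inside the full-length range of 1.15 to 1.68. The difference there was 0.073 ± 0.089 (limma adjusted p = 0.54). The other 4 bins called kept their call with the run as a block (limma adjusted p from 1.0e-05 to 0.015). In that fit only the libraries of the mutant's run give the difference, while the spread is estimated over the libraries of all runs. From raw counts only boundaries 3 and 5 kept the call, at -0.38 in each (limma adjusted p = 0.0069 and 9.1e-05). There boundary 2 was at -0.15, boundary 6 at -0.17 and boundary 1 at -0.012 (limma adjusted p = 0.33, 0.053 and 0.94). The log2 ratio of contacts on either side of a boundary to contacts spanning it gave the same split. Boundaries 1, 2, 3, 5 and 6 were lower in both mutant libraries than in all full-length libraries, and boundary 4 was not. This ratio uses the same spanning contacts as the insulation score, so it is not a separate check.

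**Figure D1:**
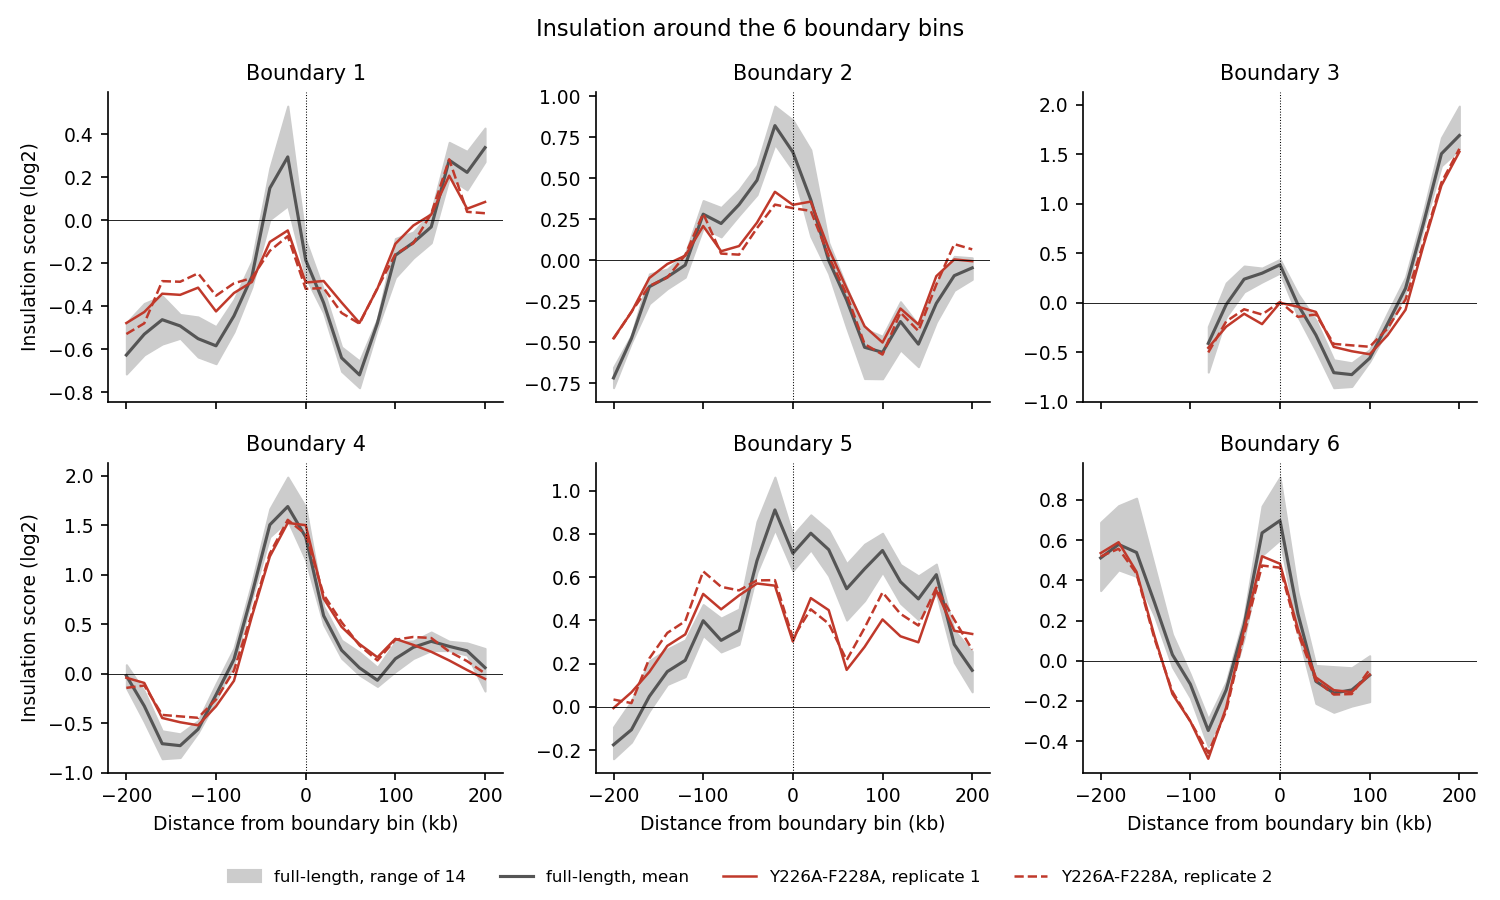
Insulation score (log2) against distance from each of the 6 boundary bins (kb). The grey band is the range and the dark line the mean of the 14 full-length libraries, and the red lines are the 2 Y226A-F228A libraries, which run below the band at boundaries 2, 3, 5 and 6 and within it at boundary 4.

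The bins beside the boundaries moved unevenly too. Before boundary 3 (chrX:100431148-100451147) the score was -0.22 and -0.12 in the mutant and 0.21 to 0.35 in full-length libraries, a difference of -0.47 ± 0.034 and the largest decrease of all bins (limma adjusted p = 2.6e-09). Before boundary 2 (chrX:99391148-99411147), a bin with 1 peak, it was 0.42 and 0.34 against 0.71 to 0.94, a difference of -0.44 ± 0.054 (limma adjusted p = 3.4e-06). The bins after boundaries 2 and 3 were not called (limma adjusted p = 0.70 and 0.28). With the run as a block, however, the bin after boundary 3 was lower by 0.14 and was called (limma adjusted p = 0.046). Around boundary 5 the bins on both sides fell, by 0.34 before and 0.33 after (limma adjusted p = 1.0e-05 and 2.1e-07). Beside boundary 4 the bin before was not called (limma adjusted p = 0.13) and the bin after, at 0.76 and 0.80 in the mutant and 0.50 to 0.68 in full-length libraries, rose by 0.19 (limma adjusted p = 7.5e-04).

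Over the whole profile, 42 of 193 bins were lower (21.8% of all bins) and 47 higher (24.4%), and 46.1% were called in either direction. The mutant and full-length ranges were apart in 40.9% of bins. Of the 30 bins within 2 bins of a boundary, 16 were lower and 5 higher, with a median difference of -0.14, against a median of -0.00034 over all bins. Of the 163 bins further away, 26 were lower and 42 higher. Of the 41 scored bins with a FLAG-CTCF peak, 17 were lower and 9 higher. Of the other bins, without a peak, 25 were lower and 38 higher. The profile of the mutant was flatter, with an SD over bins of 0.431 ± 0.0051 (SD, n = 2) against 0.472 ± 0.016 (SD, n = 14; exact permutation p = 0.0167). The difference of -0.041 was -0.030 within the run.

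The bins with the largest increases lay inside domains. Each score is relative to the mean of the region in the same library, and neighbouring bins share contacts. Rises are therefore not independent of falls elsewhere, and counts of bins are not counts of separate events. A pair of neighbours in segment 4, chrX:100511148-100531147 with Cdx4, a homeobox gene, and chrX:100531148-100551147, rose by 0.28 ± 0.053 and 0.27 ± 0.044 (limma adjusted p = 3.4e-04 and 9.0e-05). The first scored -0.45 and -0.42 in the mutant and -0.86 to -0.58 in full-length libraries. The third, chrX:99031148-99051147 in Nhsl2, rose by 0.27 ± 0.038 (limma adjusted p = 1.3e-05). In the order given, these rises were smaller with the run as a block, at 0.15, 0.17 and 0.19 (limma adjusted p = 0.037, 0.012 and 0.0021). Segment 5, between Xist and boundary 5, had 17 of 26 bins higher and 3 lower, whereas segment 6 had 12 of 99 higher and 22 lower. With the run as a block the numbers over all bins were 35 lower and 26 higher, of which 33 and 23 are among the bins called without it, and from raw counts they were 26 lower and 17 higher. Without mutant replicate 1 they were 27 and 30, and without mutant replicate 2 they were 31 and 22.

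On average over segments and boundaries, contacts inside domains were lower in the mutant and contacts between neighbouring domains higher, relative to the level at each distance. These were measured as log2 of observed over expected, where expected is the mean at the same distance in the same library, so that both measures share it. Within domains the mean over the 7 segments was 0.12 and 0.11 in the mutant. The full-length libraries had a lowest value of 0.17, a median of 0.20 and a highest of 0.22. The difference was -0.083 (exact permutation p = 0.0167, adjusted p = 0.025), and -0.055 within the run. Between adjacent domains the values were -0.095 and -0.083 in the mutant, and the lowest, median and highest full-length values were -0.21, -0.16 and -0.13. The difference was 0.071 (exact permutation p = 0.0167, adjusted p = 0.025), and 0.047 within the run. Neither pair of ranges overlapped. Each call was lost in 1 other setting on all libraries with usable files. Within domains the signal not divided by the expected value gave -0.079 (exact permutation adjusted p = 0.15), and between adjacent domains raw counts gave 0.047 (exact permutation adjusted p = 0.066). The mean rise between adjacent domains rests largely on boundary 5, where the difference was 0.40. It was 0.11 to 0.13 at boundaries 1, 2 and 3, and contacts were lower across boundaries 4 and 6, by -0.19 and -0.15.

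**Figure D2:**
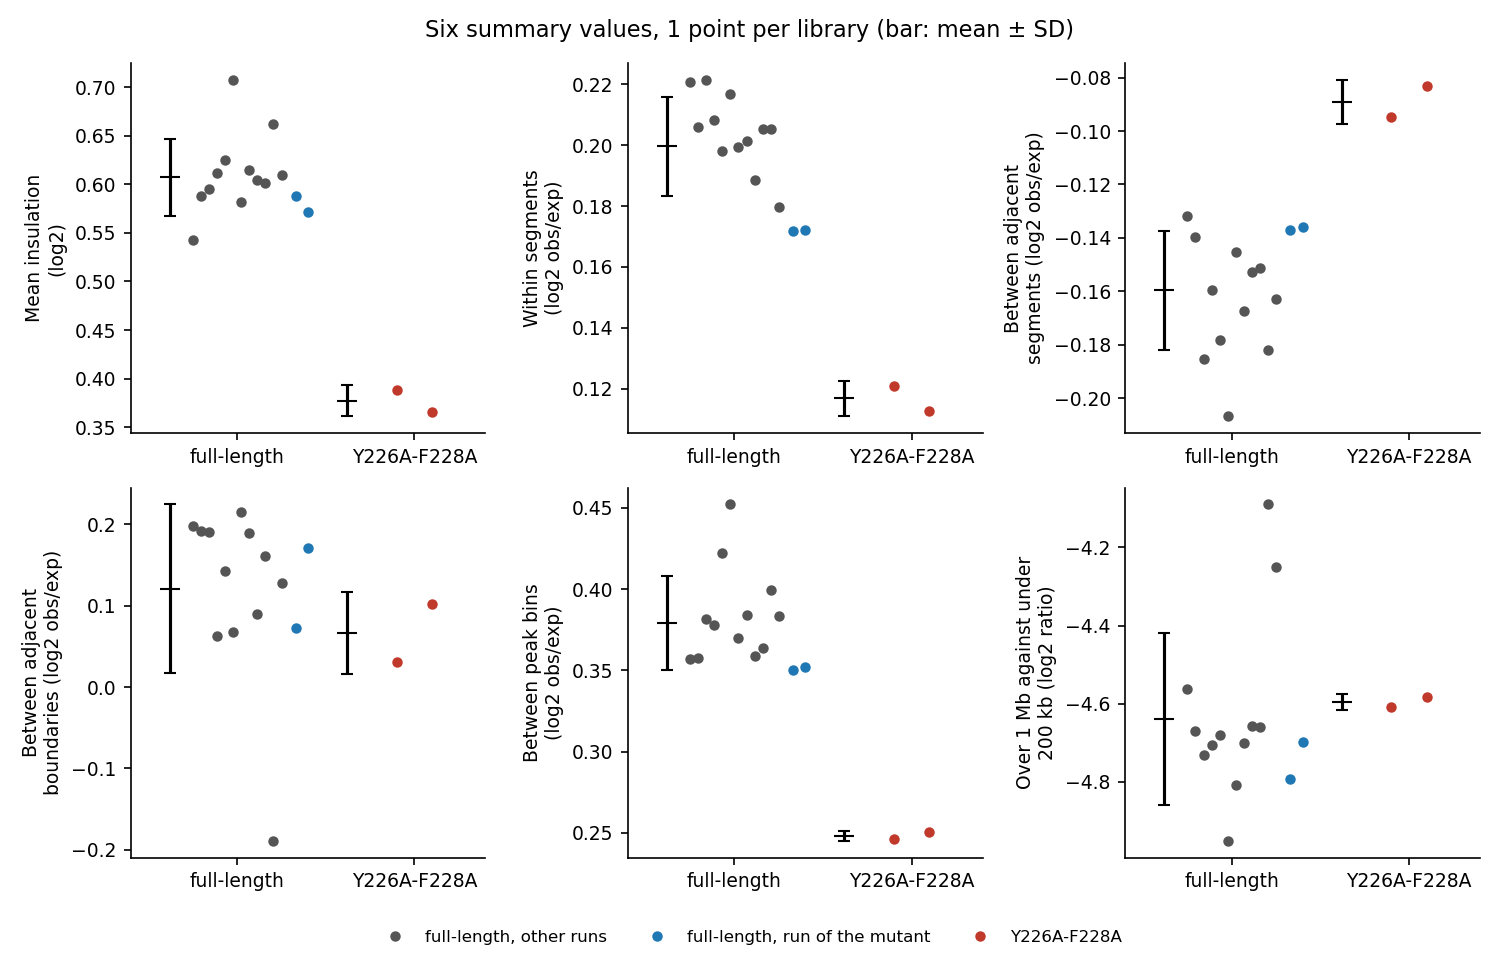
The 6 summary values of the map, 1 point per library, with the mean ± SD beside each group. Insulation and observed over expected are on a log2 scale, and blue points are the full-length libraries of the mutant's run. Insulation, contacts within segments and contacts between peak bins are lower in both Y226A-F228A libraries than in all 14 full-length libraries, contacts between adjacent segments are higher, and the remaining values overlap.

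By segment, 5 of 7 were lower and 1 higher after adjustment over the 7 (exact permutation adjusted p = 0.019 in each). Segment 1, at the start of the region with Ogt and Cxcr3, fell from 0.49 ± 0.036 (SD, n = 14) to 0.30 and 0.28. Segment 3, a domain of 1020 kb with Hdac8, Phka1 and Nap1l2, fell from 0.43 ± 0.047 to 0.23 and 0.25. Segment 5, the 520-kb domain that holds Rlim, fell from 0.14 ± 0.042 to -0.041 and -0.050, slightly below the level expected from distance. Segments 2 and 6 fell by 0.079 and 0.030. Within the run the difference was smaller in every segment. In segments 1 and 3 it was -0.16 each, in segment 2 -0.039, in segment 5 -0.12 and in segment 6 -0.023. In segments 4 and 7, described next, it was -0.0039 and 0.12. Segment 4, of 200 kb with Tsx, Chic1 and Cdx4, was not called, at 0.33 and 0.28 against 0.30 to 0.41 (exact permutation p = 0.083). Segment 7, which follows boundary 6 and holds Pgk1, a glycolytic enzyme gene, went the other way, from -0.16 ± 0.052 to 0.021 and -0.0028. From raw counts the difference was 0.058 in segment 7 and -0.12 in segment 1.

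Between neighbouring segments, the increase was largest at boundary 5. Contacts across it, over 887 bin pairs up to 1 Mb, were at -0.17 and -0.19 in the mutant and at -0.70 to -0.53 in full-length libraries. The difference of 0.40 is 1.32-fold (exact permutation p = 0.0167, adjusted p = 0.025), and it was 0.36 within the run. Contacts across boundaries 1 and 2 rose by 0.13 and 0.12 (exact permutation adjusted p = 0.025 in each). Across boundary 4 they fell, from -1.06 to -0.71 in full-length libraries to -1.10 and -1.08 (difference -0.19, exact permutation adjusted p = 0.025). Boundary 4 was the boundary with fewest contacts across it in all 16 libraries, and in the mutant there were fewer still. Across boundaries 3 and 6 the differences were 0.11 and -0.15, and the ranges overlapped (exact permutation adjusted p = 0.060 and 0.20).

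**Figure D3:**
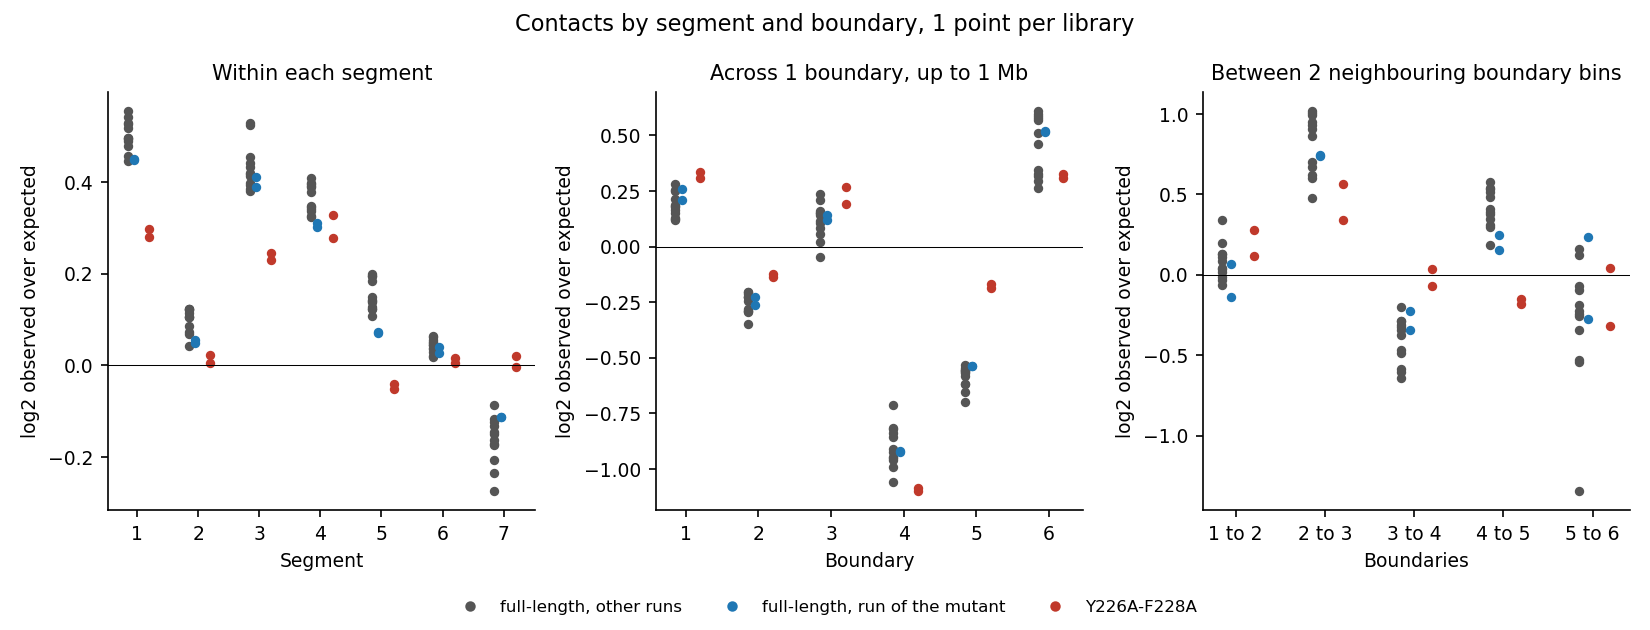
Contacts within each segment, across each boundary and between neighbouring boundary bins (log2 observed over expected), 1 point per library. In the middle panel the Y226A-F228A points at boundary 5 lie 0.40 above the full-length mean, and those at boundary 4 lie below all full-length points.

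The contacts of each boundary bin with the segment before it and the segment after it, from 40 to 500 kb, were then compared. This family of 12 values was added after the data had been seen. At boundaries 2, 3 and 4, contacts with the segment after fell and contacts with the segment before rose. The bin of boundary 2 went from 1.14 ± 0.13 (SD, n = 14) to 0.82 and 0.66 with segment 3, and from -0.86 ± 0.081 to -0.23 and -0.43 with segment 2. The bin of boundary 3 went from 0.85 ± 0.089 to 0.45 and 0.48 with segment 4, and from 0.029 ± 0.067 to 0.30 and 0.22 with segment 3. The bin of boundary 4, with the Xist promoter, went from 0.61 ± 0.13 to 0.23 and 0.21 with segment 5. With segment 4, which holds most of the Xist and Tsix genes, it went from -1.17 ± 0.21 to -0.64 and -0.63. All of these bins hold cores on the plus strand, printed above, which point to the segment after. Boundaries 2 and 4 also have minus-strand cores 2 bins before them, which point the other way.

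The bin of boundary 1 lost contacts with segment 2, from 0.37 ± 0.068 to 0.14 and 0.040, and its contacts with segment 1 overlapped between lines. Boundary 5 showed the opposite pattern. Contacts of its bin with segment 5, the segment before, fell from -0.085 ± 0.052 to -0.38 and -0.48, and those with segment 6, the segment after, rose from -0.51 ± 0.053 to -0.31 and -0.33. The core nearest to boundary 5 is on the minus strand and points to the segment before. It lies outside the boundary bin, 2 bins before, and minus-strand cores lie as near or nearer to boundaries 1, 2, 4 and 6. Whether the direction of cores goes with the side of the loss was not tested. The bin of boundary 6 differed on neither side (exact permutation adjusted p = 0.12 and 0.45), although it holds 2 cores on the plus strand. In all, 5 of the 12 values were lower and 4 higher (exact permutation adjusted p = 0.022 in each), and the 9 kept their direction within the run. There the differences of the lost sides were smaller than over all full-length libraries, from -0.32 at boundary 3 to -0.15 at boundary 1, and from raw counts the loss of boundary 2 was -0.13 and that of boundary 1 -0.17. On the gained sides, the rise of boundary 4 with segment 4 was 0.53 over all full-length libraries, 0.31 within the run and 0.33 from raw counts, and that of boundary 5 with segment 6 went from 0.18 to 0.12 from raw counts.

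**Figure D4:**
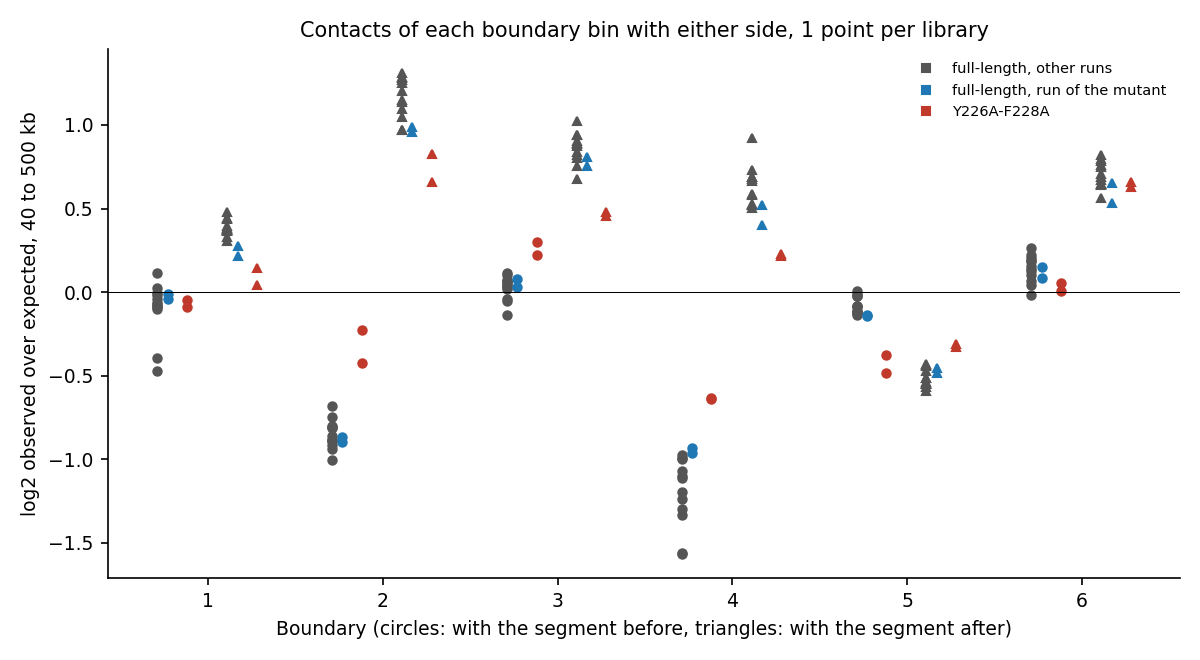
Contacts of the 6 boundary bins with the segment before (circles) and after (triangles), log2 observed over expected from 40 to 500 kb, 1 point per library. At boundaries 2, 3 and 4 the Y226A-F228A circles lie above and the triangles below all full-length points, and at boundary 5 the order is reversed.

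Contacts between neighbouring boundary bins, where the corner of a domain would appear, moved in different directions. The mean over the 5 pairs was 0.031 and 0.10 in the mutant and -0.19 to 0.22 in full-length libraries (difference -0.054, exact permutation p = 0.35). In larger squares, of 5 by 5 bins around each corner in place of 3 by 3, the mean was lower in the mutant by 0.14 and was called (exact permutation adjusted p = 0.040). Boundaries 4 and 5, which flank the domain of Xist and Rlim and lie 540 kb apart, met less often, at -0.18 and -0.15 in the mutant and 0.16 to 0.58 in full-length libraries. The difference of -0.55 is the largest of the 5 (exact permutation adjusted p = 0.042), and within the run it was -0.37. Boundaries 3 and 4, on either side of segment 4, met more often, at 0.036 and -0.068 against -0.64 to -0.20 (difference 0.38, exact permutation adjusted p = 0.042). This difference was 0.27 within the run and 0.14 from raw counts. Boundaries 2 and 3 were at 0.34 and 0.57 against 0.48 to 1.02, which did not pass adjustment (exact permutation adjusted p = 0.056). For boundaries 5 and 6, 2000 kb apart, the difference was 0.12 and turned to -0.60 with median binning and to -0.12 within the run, and one full-length library was at -1.34.

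The decay of contacts with distance did not differ beyond the spread between libraries. The log2 ratio of contacts over 1 Mb to those under 200 kb was -4.61 and -4.58 in the mutant, and -4.95 to -4.09 with a median of -4.69 in full-length libraries (difference 0.044, exact permutation p = 0.52). Of 6 distance classes, none passed adjustment. From 400 to 800 kb both mutant libraries lay above all 14 full-length libraries, by 0.063 (exact permutation p = 0.0167, adjusted p = 0.10).

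Contacts between bins with FLAG-CTCF peaks were weaker in the mutant. Over 344 pairs of bins that both hold a FLAG-CTCF peak, 100 to 1000 kb apart, log2 observed over expected was 0.246 and 0.250. The full-length libraries ranged from 0.35 to 0.45 with a median of 0.37, all above both mutant libraries. The difference was -0.13 (exact permutation p = 0.0167, adjusted p = 0.025), and -0.10 within the run. It was -0.15 for the 58 pairs from 100 to 200 kb and -0.15 for the 194 pairs from 400 to 1000 kb (exact permutation adjusted p = 0.025 in each). For the 92 pairs in between it was -0.073, and the ranges overlapped (exact permutation adjusted p = 0.050).

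Single bin pairs were tested with limma on log2 of the corrected signal, scaled to a map mean of 1, plus 0.1. Of 17004 pairs at least 40 kb apart, 70 were lower (0.412%) and 39 higher (0.229%), with a median fold of 0.465 and 1.92. The ranges were apart in 6.86% of pairs. Of the 36 called pairs with no boundary between their ends, 34 were lower, among 5788 such pairs. Of the 2454 pairs with boundary 5 alone between them, 25 were higher (1.02%) and 2 lower. Of the 881 with boundary 6 alone, 19 were lower (2.16%) and none higher, and of the 285 with boundary 4 alone, 7 were lower and none higher. Where both ends hold a FLAG-CTCF peak, 15 of 942 pairs were lower (1.59%) and none higher. With the run as a block no pair passed in limma (1747 pairs had an unadjusted p under 0.05), and all 109 pairs kept their direction. edgeR on the raw counts called 51 of the 70 and 20 of the 39. Leaving out 1 library moved the shares to between 0.141% (without full-length replicate 5) and 0.784% lower, and 0.0294% (without mutant replicate 2) and 0.519% higher, the highest both without the second full-length library numbered 3.

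**Figure D5:**
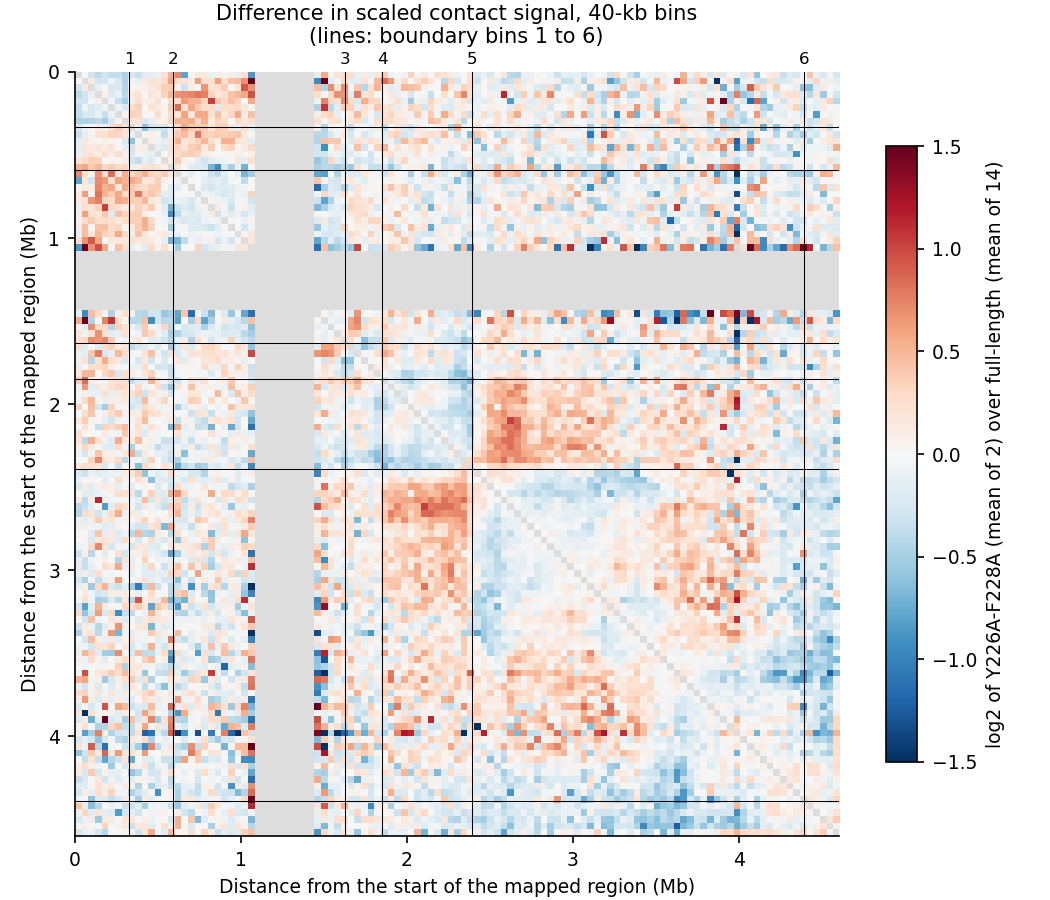
Difference in corrected contact signal between Y226A-F228A (mean of 2 libraries) and full-length (mean of 14), log2, in 40-kb bins against distance from the start of the mapped region (Mb). Lines mark boundary bins 1 to 6 and grey bins were not measured. Red squares, with more contact in the mutant, lie between segments 5 and 6 across boundary 5, and blue ones lie inside segment 5 and between segments 6 and 7 across boundary 6.

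The bin that recurred most among the called pairs, chrX:101171148-101191147, holds the promoter of Rlim and the minus-strand core shown above. It took part in 13 of the 109 called pairs, out of 198 tested pairs of this bin. Over all 17004 pairs tested, 0.412% were lower and 0.229% higher. This bin was singled out after its values were seen, and its pairs share that bin. Lower in the mutant were 7, among them 3 with bins of segment 5, 2 with the end of segment 4 (chrX:100631148-100671147), where Tsix and Xist lie, and 1 with boundary 3. Higher were 6, all with segment 6 between chrX:101311148 and chrX:101571147, by 0.75 to 1.18 on the log2 scale. Towards lower coordinates, where its core points, this bin thus had lower pairs, and across boundary 5 it had higher ones, apart from 1 lower pair at 1020 kb. The bin before boundary 2, with a peak, had 4 lower pairs with segments 3 and 4 and 1 higher pair with segment 1, of 146 tested. Beyond boundary 6, the bin with Pgk1 (chrX:103371148-103391147) and the bin before it had 5 lower pairs each, all with segment 6.

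The largest decrease joined chrX:102451148-102471147 in segment 6, a bin with a peak and no named gene, to the bin of Pgk1 at 920 kb, where there is also a peak. The scaled signal was 0.150 and 0.149 in the mutant, and its lowest, median and highest values in full-length libraries were 0.86, 1.53 and 1.93. The fold was 0.166 on the log2 scale with 0.1 added (limma adjusted p = 2.0e-04), on 19 and 34 counts in the mutant and 60 to 197 in full-length libraries. edgeR also called it (adjusted p = 0.0016). The same bin met the first of 2 named bins of Atrx, a chromatin remodeler gene (chrX:103051148-103071147), less often, at 0.58 and 0.16 against 1.05 to 3.93 (fold 0.209, limma adjusted p = 0.024). The second, chrX:103111148-103131147, had fewer contacts with chrX:102131148-102151147, at 0 and 0.0040 against 0.13 to 0.45 (fold 0.30, limma adjusted p = 0.021). Both were called by edgeR (adjusted p = 0.012 and 0.0093). The bin of boundary 5 with chrX:102211148-102231147, and Hdac8 with Zdhhc15 at 2340 kb, were lower in limma (adjusted p = 0.028 and 0.044) and not in edgeR (adjusted p = 0.14 and 0.15).

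The 5 largest increases named were rare contacts over long distances, and none of them was called by edgeR. A pair was tested where its scaled signal averaged at least 0.1 over all libraries, and 5 of the 39 higher pairs had a full-length mean under 0.1 and so entered only through the mutant libraries. Among these were 4 of the 5 named, which are given as a description without a test. The first joined chrX:99451148-99471147 in segment 3 to chrX:101371148-101391147 with C77370 in segment 6, at 1.16 and 1.86 in the mutant on 19 and 29 counts. It was listed at 0 in 12 of the 14 full-length libraries, and in those with complete counts the highest count was 4. The one pair with a full-length mean over the minimum was chrX:99171148-99191147 in Nhsl2 with chrX:101111148-101131147 in segment 5, at 0.76 and 0.64 in the mutant, on 162 counts in replicate 1, against 0.014 to 0.31 on 5 to 140 counts (fold 3.44, limma adjusted p = 0.030, edgeR adjusted p = 0.44). The others joined Phka1 to a bin of C77370, Hdac8 to the bin at chrX:102451148-102471147, and chrX:98891148-98911147 to Magt1.

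Lines with other CTCF mutants, treated in the same way, and the full-length line with auxin and no dox give a scale for these differences. Mean insulation was 0.48 ± 0.020 (SD, n = 10) in cells expressing CTCF without residues 1-265, that is, 0.11 above the Y226A-F228A libraries (exact permutation p = 0.030, adjusted p = 0.061). These libraries pool clone 1, at 0.47 ± 0.011 (SD, n = 6), and clone 2, at 0.50 ± 0.018 (SD, n = 4). They come from several runs, and only replicates 5 and 6 of clone 1 share the run of the mutant. In the full-length line with auxin and no dox, whose libraries come from another run than the mutant, mean insulation was 0.37 and 0.38. Against this line the means differed by -0.0011, but single boundaries differed in both directions. The mutant was higher by 0.23 at boundary 4, at 1.45 against 1.22 on average, and lower at boundary 2, at 0.33 against 0.46. With 2 libraries against 2 no difference could have been called. Contacts between peak bins were 0.24 ± 0.031 (SD, n = 10) without residues 1-265, which overlapped the mutant (exact permutation p = 0.82). With auxin alone they were 0.346 and 0.369, above both mutant libraries. The higher of these values lay inside the range of the full-length line with dox, 0.350 to 0.452, and the lower value just below it. The double mutant, which carries Y226A-F228A and lacks residues 13-33, shares the run. Its mean insulation was 0.45 and 0.47, and contacts across boundary 5 were at -0.31 and -0.34, between the mutant and the full-length values in both measures.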

How the data were processed

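5C libraries (in situ, HindIII) were grouped by the line and treatment in the labels. The main comparison is of 2 lines with auxin and dox, and other mutant lines and the full-length line with auxin alone were set beside it. The authors assigned reads to pairs of primers placed on mm9, and the deposited count is the unnormalized number of reads per pair of up to 486 forward and 504 reverse primers. They also deposited the same matrix as signal after iterative correction at the fragment level, and a list of FLAG-CTCF peak coordinates without scores. The submitters' processing notes name Bowtie2 and SAMtools. The count matrices of 2 full-length libraries stop early and were not used, and the corrected matrices of 2 others are not symmetric. Libraries shared at most 4.40% of equal counts over 91 pairs of libraries.

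Corrected signal was averaged in 20-kb bins, and scores needed 50% of a square measured. Single values were compared by two-sided exact permutation tests with Benjamini-Hochberg adjustment in families. Bins and bin pairs (mean of at least 0.1, pseudocount 0.1) were fitted with limma 3.58.1, and raw counts with edgeR 4.0.16, in R 4.3.3 with Python 3.11.15. A call is an adjusted p under 0.05. Scripts were tested on simulated data. In the main comparison, replicates are libraries of 1 clone per line, so p-values measure the spread between libraries. The libraries without residues 1-265 pool clones 1 and 2. The members, families and boundaries were chosen with earlier results of these data known. Named are the boundary bins with their neighbours, segments, corners, distance classes, the 3 bins with the largest called change each way, and the 5 bin pairs each way with both mutant libraries outside the full-length range and one end at least 3 bins from a pair already named. Genes come from GENCODE on NCBIM37. Intervals and p-values do not cover errors of amplification.

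Alternatives were median binning, raw counts, own iterative correction, thinning to 4978817 counts in the corrected primers, other windows, squares, filters, pseudocounts (0.01 and 0.5) and bins, the run or replicate block, and each library left out. Equal replicate numbers did not pair the libraries (correlation of deviations -0.067 and -0.088).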

Additional observations from a re-analysis of the deposited data

Results flagged for a closer look

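Of 12 sets of values in the lines that lack residues 1-265 or 13-33, 1 had a library far from the others. Among the 10 libraries without residues 1-265, the log2 ratio of contacts over 1 Mb to those under 200 kb was -4.31 in replicate 1 of clone 2, and the others lay between -4.69 and -4.52. Its gap to the nearest library was 0.560 of the whole range. Chance flags about 1 in 20 such sets.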

How the results depend on the processing

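Mean insulation, contacts within domains, contacts between adjacent domains and contacts between peak bins kept their direction under every alternative run, and lost their call where few libraries remained. Within the run they were -0.20, -0.055, 0.047 and -0.10 (exact permutation p = 0.333, the smallest possible). With the replicate block, on replicates 1 and 2 of both lines, they were -0.19, -0.097, 0.047 and -0.11 (exact permutation p = 0.5, the smallest possible). Contacts between adjacent domains from raw counts were 0.047, and contacts within domains not divided by the expected value -0.079, both without a call, and the cause was not tested. The corner mean passed with squares of 5 by 5 bins, at -0.14. The distance ratio reversed with median binning (-0.20) and with raw counts (-0.041), and was called in no setting, and the cause was not tested. Without boundary 4, an alternative added after the data had been seen, mean insulation differed by -0.29.

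Leaving out each library gave -0.24 to -0.22 for mean insulation, -0.087 to -0.079 within domains, 0.065 to 0.077 between adjacent domains, -0.090 to -0.019 for corners, 0.020 to 0.086 for the distance ratio and -0.133 to -0.126 for peak bins. Without 1 mutant library the exact permutation p cannot go below 0.133, and in limma the lone library is assumed to vary like the full-length ones.

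Bins called lower numbered 26 from raw counts, and bins called higher 17 from raw counts and 26 with the run as a block. They ranged from 27 to 45 lower and 22 to 49 higher with a library left out, the lowest without a mutant library. The share of bin pairs called depended on the setting most. The percentages lower and higher were 0.109 and 0.0486 from raw counts, 0.112 and 0.0354 with own correction, 0.0885 and 0.0295 after thinning, 0.0472 and 0.00591 without the libraries whose matrix is not symmetric, 0.17 and 0.107 without a filter, 0.653 and 0.959 with a pseudocount of 0.5 and 2.13 and 3.29 in 40-kb bins. In limma both were 0 with the run block and with the replicate block (1747 and 1081 pairs at an unadjusted p under 0.05). A pseudocount of 0.01 gave 0.77 lower and observed over expected 0.0923 higher. edgeR gave 0.792 lower and 0.262 higher with TMM, 0.748 and 0.352 with RLE, and 0.801 lower without a filter. With a library left out they ranged from 0.141 to 0.784 lower and from 0.0294 to 0.519 higher. Shares moved by over 1.5 times without any library but full-length replicates 1 and 13, the first numbered 3, and, for lower pairs, mutant replicate 1. In each of these settings on 20-kb bins, the pairs called above that could be tested kept their direction.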
